A study of Homo sapiens with 16 samples.

Results

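The 10 genes described here belong to the antioxidant programme of the transcription factor NRF2: NFE2L2, which encodes NRF2, its repressor KEAP1, and the target genes HMOX1, NQO1, GCLC, GCLM, TXN, TXNRD1, SRXN1 and PRDX1. They were taken by name, as genes of known function, from a table of translation ratios that lists 28252 genes. All 10 had a ratio above 0 in all 8 cultures, as did 15864 genes in the table, which is the set that was tested. The ratios come from H9, an established line of human embryonic stem cells grown in mTeSR1 medium without feeder cells, so every culture is of 1 line. The 4 groups, with 2 cultures each, were cells given an siRNA against OCT4 (siOCT4) and kept at 1% oxygen, siOCT4 cells at 20% oxygen, cells given a control siRNA (labelled NC) at 1% oxygen, and control siRNA cells at 20% oxygen. Each culture gave 2 libraries, 1 from total RNA and 1 from the RNA held in ribosome-nascent chain complexes (RNC), the mRNA engaged with ribosomes, 16 libraries in all. The translation ratio is the RNC value of a gene over its total RNA value, so a different ratio can come from a different RNC level or a different RNA level, and the table gives neither level. Nothing in the labels tells cultures grown apart from repeat preparations, and p-values measure only the spread between these samples.

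NRF2 is a transcription factor that is made continuously and degraded: KEAP1 is the adaptor through which a cullin 3 ubiquitin ligase marks it for the proteasome. Oxidants and electrophiles modify cysteines of KEAP1, NRF2 then accumulates, pairs with small MAF proteins and binds antioxidant response elements near its target genes. The targets make and use glutathione and thioredoxin, break down heme and detoxify quinones.

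The antioxidant response element has the core letters TGACNNNGC, and this string was searched on both strands in the 250 bases before each RefSeq gene start (GRCh38.p14). Windows were matched by symbol for 8 of the 10 genes, NFE2L2, KEAP1, NQO1, GCLC, GCLM, TXN, TXNRD1 and SRXN1. At least 1 match stood in the windows of KEAP1, GCLM and TXNRD1. Among all 27305 genes with a window, 3609 (13.2%) had a match, so the letters occur by themselves in many promoters, and a match is not a binding site. Sequence further from the start was not searched, so a missing match does not show that a gene lacks the element. The 3 stretches below are shown because their cores read alike on the opposite strand (GCNNNGTCA, in capitals); KEAP1 and TXNRD1 each had 1 more match on the gene's own strand. The GCLM stretch is at chr1:93909436-93909484 on the minus strand, the TXNRD1 stretch at chr12:104286910-104286958 on the plus strand and the KEAP1 stretch at chr19:10502774-10502822 on the minus strand.
GCLM: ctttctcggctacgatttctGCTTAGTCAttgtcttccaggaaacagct
TXNRD1: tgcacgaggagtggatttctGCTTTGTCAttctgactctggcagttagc
KEAP1: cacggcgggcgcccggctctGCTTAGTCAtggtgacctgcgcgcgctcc
The core of the printed GCLM stretch lies 34 to 26 bases before the start, that of KEAP1 31 to 23 bases and that of TXNRD1 102 to 94 bases. Over the 8 cultures the log2 ratios of GCLM and TXNRD1 ran together (Pearson r = 0.794), while that of KEAP1 had r = -0.527 with GCLM and -0.739 with TXNRD1. These correlations use the ratios as deposited, which in some groups followed transcript GC content (next paragraph). GC content is 40.1% for GCLM, 47.4% for TXNRD1 and 61.4% for KEAP1. Correlations with GC content taken into account were not computed. GC corrected (defined below), the log2 changes of GCLM and TXNRD1 had opposite signs with siOCT4 at 1% oxygen (-1.04 and 0.19) and at 20% (0.55 and -0.27). With 1% oxygen their signs were opposite in siOCT4 cells (-0.58 and 0.64) and alike in control cells (1.01 and 0.18). Of these TXNRD1 values only 0.64 passed limma's test at an adjusted p under 0.05. The ratio is not a measure of transcription.

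In 2 of the groups the ratio followed the base composition of the transcript. A spline on transcript GC content took up 62.0% and 64.1% of the spread (variance) of log2 ratios among genes in the siOCT4 cultures at 1% oxygen and 69.4% and 62.4% in the control cultures at 20%. The shares were 13.2% and 8.34% in the siOCT4 cultures at 20% oxygen and 0.0931% and 9.91% in the control cultures at 1%. Each pair of groups compared below differs in this trend. Results are therefore given on the ratios as deposited and again as residuals from the trend of each culture, called GC corrected, for the 15261 tested genes with a GC content. Changes are on the log2 scale with their SE (n = 2 cultures per group), and a number in brackets after a change with no other name is its adjusted p by limma. The effect of GC content on any single result was not tested beyond this. A ratio in all 8 cultures was found for 10 of 10 markers of primed pluripotent cells, 2 of 6 trophoblast markers and 3 of 6 fibroblast markers, and a ratio says nothing of how abundant an mRNA is. POU5F1, the gene of OCT4, had a ratio that differed by 0.72 ± 0.22 (log2, SE; limma, adjusted p = 0.0383) between siOCT4 and control cells at 20% oxygen and by -0.96 ± 0.22 at 1% oxygen (adjusted p = 0.0116). GC corrected, the POU5F1 values were 0.33 ± 0.17 at 20% oxygen (0.225) and -0.81 ± 0.17 at 1% oxygen (0.0126). The ratio does not show whether, or how far, its mRNA was lowered.

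The 10 transcripts span most of the range of GC content, between 39.2% for TXN and 61.4% for KEAP1. GCLM stands at 40.1%, GCLC at 44.1%, NFE2L2 at 45.3%, TXNRD1 at 47.4%, NQO1 at 47.8%, PRDX1 at 48.7%, SRXN1 at 53.6% and HMOX1 at 60.8%. Across the 10 genes the Spearman correlation of ratio and GC content was -0.60 and -0.685 in the siOCT4 cultures at 1% oxygen, -0.612 and -0.661 in the siOCT4 cultures at 20%, 0.176 and -0.115 in the control cultures at 1% and -0.867 and -0.855 in the control cultures at 20%. Over 15261 genes it was, in the same order, -0.791 and -0.804, -0.438 and -0.329, 0.0175 and -0.345, and -0.843 and -0.797. The values for the members describe 10 genes measured in the same libraries.

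**Figure D1:**
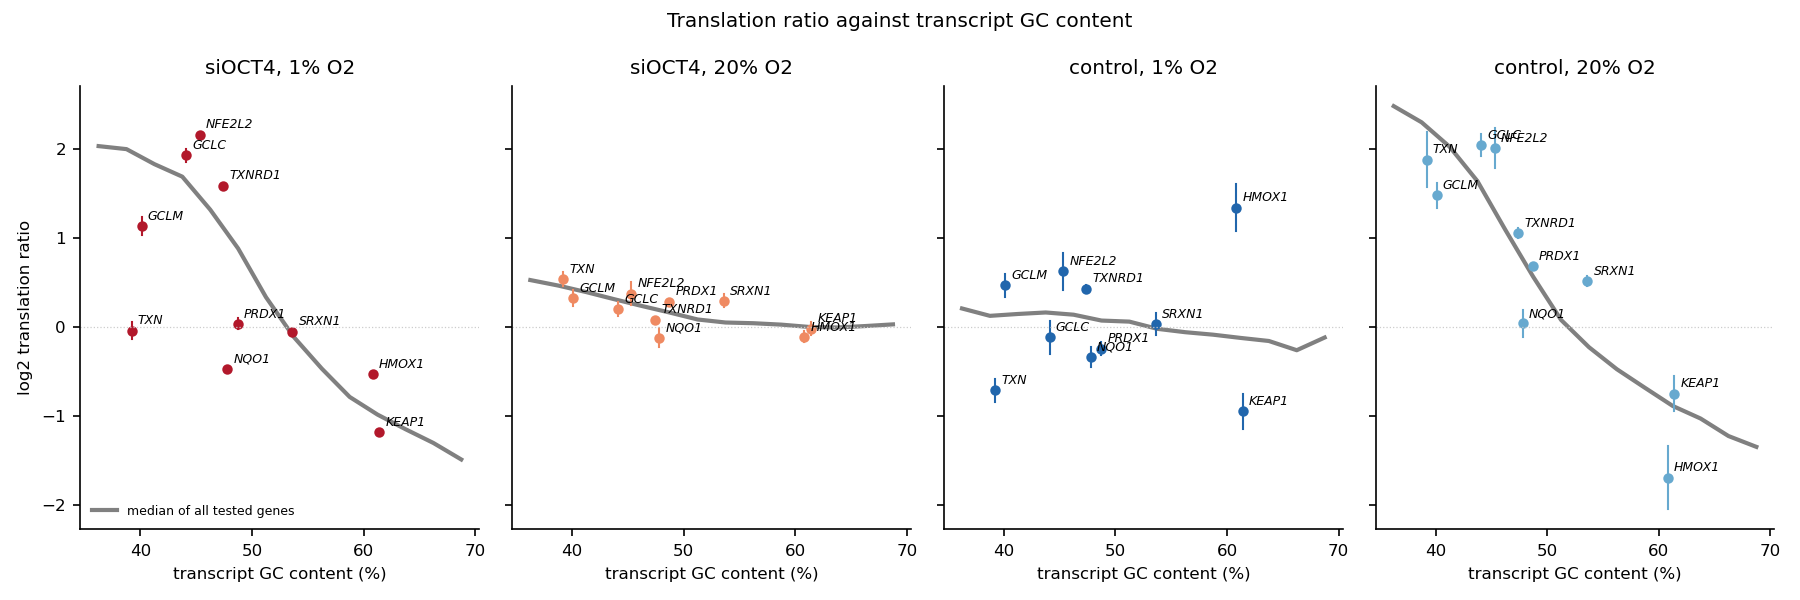
Log2 translation ratio against transcript GC content in percent, 1 panel per group; points are the means of 2 cultures, vertical lines join the 2 cultures, and the grey line is the median of all tested genes in bins of GC content. TXN, at 39.2% GC, lies under the grey line in both groups at 1% oxygen and in control cells at 20% oxygen. HMOX1, at 60.8% GC, lies above it in control cells at 1% oxygen and under it in control cells at 20% oxygen.

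**Figure D2:**
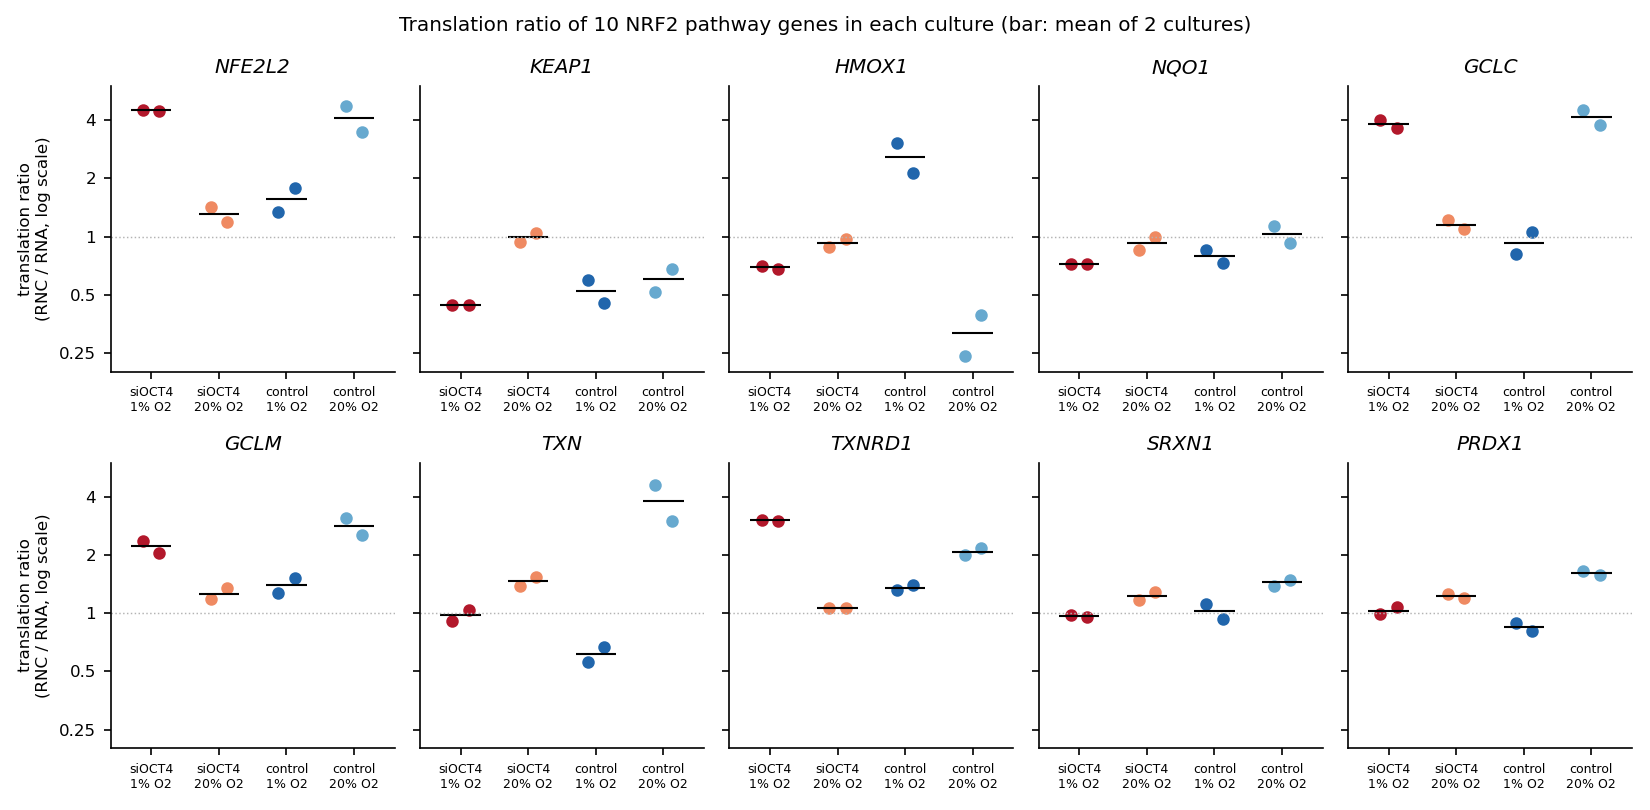
Translation ratio (log axis) of each of the 10 genes in every culture; each point is 1 culture and the bar is the mean of the 2 cultures of a group. HMOX1 is highest in control cells at 1% oxygen (3.05 and 2.12) and lowest in control cells at 20% oxygen (0.242 and 0.395), whereas NFE2L2 and GCLC are high in siOCT4 cells at 1% and control cells at 20% oxygen.

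Among the regulators, NFE2L2 had ratios of 4.53 and 4.45 under siOCT4 at 1% oxygen, 1.42 and 1.19 under siOCT4 at 20%, 1.34 and 1.78 under control siRNA at 1%, and 4.72 and 3.46 under control siRNA at 20%. Its ratio was thus high in siOCT4 cells at 1% oxygen and control cells at 20% oxygen, which overlapped each other, and lower in the other 2 groups, which also overlapped. The ratio 3.46 was shared by 17 genes of its culture and is called coarse here, as is any ratio that at least 3 genes of a culture share. NFE2L2 fell 3.11-fold with siOCT4 at 20% oxygen (log2 change -1.64 ± 0.23, SE; limma, adjusted p = 0.00215) and 2.61-fold at 1% against 20% oxygen in control cells (-1.38 ± 0.23, adjusted p = 0.00294). It rose 2.90-fold with siOCT4 at 1% oxygen (1.54 ± 0.23, adjusted p = 0.00199) and 3.45-fold at 1% against 20% oxygen in siOCT4 cells (1.79 ± 0.23, adjusted p = 0.00142), and all 4 calls were kept whichever culture was left out. GC corrected, the 4 directions were the same but 1 call was left, a 1.61-fold rise at 1% against 20% oxygen in siOCT4 cells (0.68 ± 0.17, adjusted p = 0.0271). That call needed every siOCT4 culture: leaving out replicate 1 or 2 gave an adjusted p of 0.108 or 0.0923 at 1% oxygen, and 0.0702 or 0.146 at 20%. The other corrected values were -0.57 ± 0.17 with siOCT4 at 20% oxygen (adjusted p = 0.0721), 0.27 ± 0.17 with siOCT4 at 1% (0.257) and -0.15 ± 0.17 with 1% oxygen in control cells (0.502).

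KEAP1, the GC-rich member that encodes the repressor, had ratios of 0.442 and 0.441 under siOCT4 at 1% oxygen, 0.941 and 1.04 under siOCT4 at 20%, 0.593 and 0.453 under control siRNA at 1%, and 0.519 and 0.682 under control siRNA at 20%. The siOCT4 cultures at 20% oxygen stood above all others and the siOCT4 cultures at 1% below all others, while the control groups overlapped. The value 0.519 is a coarse one, shared by 3 genes of its culture. KEAP1 fell 2.24-fold at 1% against 20% oxygen in siOCT4 cells (-1.16 ± 0.23, limma, adjusted p = 0.00659), a call that missed the threshold without siOCT4 replicate 2 at 20% oxygen (adjusted p = 0.0522) and that was -0.27 ± 0.11 GC corrected (adjusted p = 0.0966). At 20% oxygen it rose 1.66-fold with siOCT4 (0.74 ± 0.23, adjusted p = 0.0376), but the value was -0.17 ± 0.11 GC corrected (0.302) and the call was kept in only 3 of the 8 fits that leave out 1 culture, those without either control culture at 1% oxygen or without control replicate 2 at 20%. The remaining comparisons of KEAP1 were not called as deposited (-0.23 ± 0.23 with siOCT4 at 1% oxygen, -0.20 ± 0.23 with 1% oxygen in control cells). GC corrected, both were: KEAP1 lay 0.51 ± 0.11 higher with siOCT4 at 1% oxygen (adjusted p = 0.0116, and 0.0582 without siOCT4 replicate 2 at 1% oxygen) and 0.94 lower with 1% oxygen in control cells (log2 change -0.94 ± 0.11, adjusted p = 0.00155, in all 8 fits).

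HMOX1 encodes heme oxygenase 1, the inducible enzyme that opens the heme ring to biliverdin, iron and carbon monoxide, and it had the widest range of the 10 genes. Its ratio was 0.706 and 0.682 under siOCT4 at 1% oxygen, 0.888 and 0.967 under siOCT4 at 20%, 3.05 and 2.12 under control siRNA at 1%, and 0.242 and 0.395 under control siRNA at 20%. The 4 groups followed the order control at 1%, siOCT4 at 20%, siOCT4 at 1% and control at 20% oxygen, with no overlap between neighbours and 12.6-fold between the highest and the lowest culture. In control cells at 1% oxygen the HMOX1 ratio exceeded that of 98.2% and 95.1% of tested genes, and in control cells at 20% oxygen that of 4.6% and 5.1%.

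In control cells HMOX1 rose 8.22-fold at 1% against 20% oxygen (3.04 ± 0.29, limma, adjusted p = 0.000377) and, GC corrected, 5.03-fold (2.33 ± 0.13, adjusted p = 0.000405). It fell 3.66-fold with siOCT4 at 1% oxygen (-1.87 ± 0.29, adjusted p = 0.0023) and, GC corrected, 2.26-fold (-1.18 ± 0.13, adjusted p = 0.00165). Both calls were kept with each of the 8 cultures left out, as deposited and GC corrected. The HMOX1 ratio also rose with siOCT4 at 20% oxygen, 3.0-fold (1.58 ± 0.29, adjusted p = 0.00576), in all 8 such fits, and 1.64-fold GC corrected (0.72 ± 0.13, adjusted p = 0.0197). Among the cultures at 20% oxygen, leaving out control replicate 1 (adjusted p = 0.0723), siOCT4 replicate 1 (0.0985) or siOCT4 replicate 2 (0.121) ended the corrected call. In siOCT4 cells, 1% against 20% oxygen gave -0.42 ± 0.29 (adjusted p = 0.25), although the cultures of the 2 groups did not overlap. GC corrected this value had the other sign, 0.44 ± 0.13 (adjusted p = 0.0403), and leaving out siOCT4 replicate 1 or 2 ended that call, with 0.136 or 0.128 at 1% oxygen and 0.178 or 0.115 at 20%.

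NQO1 encodes the quinone reductase that is the standard readout of NRF2 activity, and its ratio varied least. It was 0.723 and 0.724 under siOCT4 at 1% oxygen, 0.856 and 0.993 under siOCT4 at 20%, 0.856 and 0.731 under control siRNA at 1%, and 1.14 and 0.929 under control siRNA at 20%. The highest culture was 1.58-fold above the lowest, and the groups next to each other overlapped except siOCT4 and control cells at 1% oxygen. As deposited, NQO1 passed in none of the 4 comparisons by limma, with log2 changes between -0.38 ± 0.17 (1% against 20% oxygen in control cells, adjusted p = 0.105) and -0.13 ± 0.17 (siOCT4 at 1% oxygen, adjusted p = 0.547). Relative to genes of like GC content, however, NQO1 was low in siOCT4 cells at 1% oxygen, where its corrected value exceeded that of 3.9% of genes in both cultures, against 32.7% and 16.1% in control cells at 1%. GC corrected, it fell with siOCT4 at 1% oxygen (-1.03 ± 0.18, adjusted p = 0.00686, kept in all 8 fits with 1 culture left out). It also fell with 1% against 20% oxygen in siOCT4 cells (-1.15 ± 0.18, adjusted p = 0.00672, and 0.0532 without siOCT4 replicate 2 at 20% oxygen).

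Glutathione synthesis is limited by glutamate-cysteine ligase, which is made of a catalytic subunit, GCLC, and a modifier subunit, GCLM. GCLC had ratios of 4.02 and 3.63 under siOCT4 at 1% oxygen, 1.22 and 1.09 under siOCT4 at 20%, 0.814 and 1.05 under control siRNA at 1%, and 4.53 and 3.79 under control siRNA at 20%. GCLM had ratios of 2.37 and 2.05 under siOCT4 at 1% oxygen, 1.18 and 1.34 under siOCT4 at 20%, 1.27 and 1.51 under control siRNA at 1%, and 3.09 and 2.54 under control siRNA at 20%. Both subunits were thus high in siOCT4 cells at 1% and control cells at 20% oxygen, and low in the other 2 groups. The high groups of GCLC overlapped, and so did the low groups of GCLM, where the value 1.34 is a coarse one shared with other genes. As deposited, GCLC fell 4.49-fold with 1% oxygen in control cells (-2.17 ± 0.18, limma, adjusted p = 0.000282) and 3.6-fold with siOCT4 at 20% oxygen (-1.85 ± 0.18, adjusted p = 0.000805). It rose 4.14-fold with siOCT4 at 1% oxygen (2.05 ± 0.18, adjusted p = 0.000413) and 3.32-fold with 1% oxygen in siOCT4 cells (1.73 ± 0.18, adjusted p = 0.000897).

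The subunits parted once GC content was taken into account. GC corrected, GCLC kept its direction and its call in each comparison: it fell 1.63-fold with 1% oxygen in control cells (-0.71 ± 0.12, limma, adjusted p = 0.00501) and rose 1.56-fold with siOCT4 at 1% oxygen (0.64 ± 0.12, adjusted p = 0.0074), both in all 8 fits with 1 culture left out. Its corrected fall with siOCT4 at 20% oxygen (-0.59 ± 0.12, adjusted p = 0.0248) was lost without control replicate 1 (0.0781) or siOCT4 replicate 1 (0.11) or 2 (0.143) at 20% oxygen. Its corrected rise with 1% oxygen in siOCT4 cells (0.52 ± 0.12, adjusted p = 0.018) ended when siOCT4 replicate 1 at 1% oxygen (0.0911), or siOCT4 replicate 1 (0.0649) or 2 (0.11) at 20%, was left out, and was 0.38 (0.0504) when transcript length was corrected too. GCLM, in contrast, changed sign with the correction in each comparison. It fell 2.02-fold with 1% oxygen in control cells as deposited (-1.02 ± 0.18, adjusted p = 0.00388) but rose 2.01-fold GC corrected (1.01 ± 0.13, adjusted p = 0.00259), both in all 8 fits. It rose 1.59-fold as deposited with siOCT4 at 1% oxygen (0.67 ± 0.18, adjusted p = 0.019) but fell 2.05-fold GC corrected (-1.04 ± 0.13, adjusted p = 0.00266). The deposited call was lost without replicate 1 of control (0.09) or of siOCT4 cells (0.101) at 1% oxygen.

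For GCLM with siOCT4 at 20% oxygen, the deposited change was -1.15 ± 0.18 (limma, adjusted p = 0.00323) and the corrected one 0.55 ± 0.13 (0.0419), which was lost in all 8 fits with 1 culture left out (adjusted p between 0.0582 and 0.197). The GCLM values with 1% oxygen in siOCT4 cells were 0.80 ± 0.18 (0.0103) and, GC corrected, -0.58 ± 0.13 (0.0204). The deposited call was lost without siOCT4 replicate 1 at 1% (0.0617) or at 20% oxygen (0.0645), and the corrected one without siOCT4 replicate 2 at 1% (0.0926) or at 20% oxygen (0.115). No direction for GCLM therefore holds under both scales.

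The thioredoxin arm comprises thioredoxin itself, TXN, a small disulfide reductase, and TXNRD1, the selenoprotein that reduces it with NADPH. TXN had ratios of 0.912 and 1.04 under siOCT4 at 1% oxygen, 1.38 and 1.54 under siOCT4 at 20%, 0.559 and 0.667 under control siRNA at 1%, and 4.57 and 2.99 under control siRNA at 20%. TXNRD1 had ratios of 3.03 and 3.0 under siOCT4 at 1% oxygen, 1.06 and 1.06 under siOCT4 at 20%, 1.31 and 1.39 under control siRNA at 1%, and 2.00 and 2.16 under control siRNA at 20%. For both genes no neighbouring groups overlapped, but the orders differed: TXN was highest in control cells at 20% oxygen and lowest in control cells at 1%, TXNRD1 highest in siOCT4 cells at 1% and lowest in siOCT4 cells at 20%. GENCODE lists 7 pseudogenes named after TXN, and reads could be split between them and the gene.

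TXN fell 6.05-fold at 1% against 20% oxygen in control cells (-2.60 ± 0.23, limma, adjusted p = 0.000336), the largest fall among the 10 genes in that comparison, and fell 2.54-fold with siOCT4 at 20% oxygen (-1.34 ± 0.23, adjusted p = 0.00509). GC corrected these were -0.49 ± 0.17 (0.0596, 0.0451 without control replicate 2 at 20% oxygen, and 0.0363 at -0.56 with transcript length corrected too) and 0.42 ± 0.17 (0.141). TXN was 1.59-fold higher with siOCT4 at 1% oxygen as deposited (0.67 ± 0.23, adjusted p = 0.0482) and 2.09-fold lower GC corrected (-1.07 ± 0.17, 0.00493). The deposited call was kept only without control replicate 1 or 2 at 20% oxygen and reached an adjusted p of 0.192 otherwise, while the corrected one was kept in all 8 fits but was -0.20 (0.37) when transcript length was corrected too. In siOCT4 cells TXN gave -0.58 ± 0.23 at 1% against 20% oxygen as deposited (0.0752, but 0.0265 and 0.026 without control replicate 1 or 2 at 20% oxygen) and fell 3.93-fold GC corrected (-1.97 ± 0.17, 0.00262, in all 8 fits). Here the direction held with length corrected too (-1.08, adjusted p = 0.0089). TXN has a transcript of 752 bases, the shortest of the 10, and at 39.2% GC its corrected value in siOCT4 cells at 1% oxygen exceeded that of 1.4% and 2.0% of genes.

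TXNRD1 rose 2.84-fold at 1% against 20% oxygen in siOCT4 cells (1.5 ± 0.12, limma, adjusted p = 0.000683) and, GC corrected, 1.56-fold (0.64 ± 0.11, adjusted p = 0.00799). The corrected call was lost without siOCT4 replicate 1 (0.0549) or 2 (0.0517) at 20% oxygen. It also rose 2.23-fold with siOCT4 at 1% oxygen (1.16 ± 0.12, adjusted p = 0.000611) and fell 1.96-fold with siOCT4 at 20% oxygen (-0.97 ± 0.12, 0.00146). GC corrected these were 0.19 ± 0.11 (0.203) and -0.27 ± 0.11 (0.135). In control cells it fell 1.54-fold at 1% against 20% oxygen (-0.62 ± 0.12, 0.00556), and the corrected value had the other sign, 0.18 ± 0.11 (0.224). All 4 deposited calls of TXNRD1 were kept in the 8 fits with 1 culture left out.

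PRDX1 encodes an abundant peroxiredoxin, a peroxidase that thioredoxin regenerates, and SRXN1 encodes sulfiredoxin, which repairs overoxidised peroxiredoxins. PRDX1 had ratios of 0.985 and 1.07 under siOCT4 at 1% oxygen, 1.25 and 1.19 under siOCT4 at 20%, 0.887 and 0.806 under control siRNA at 1%, and 1.65 and 1.57 under control siRNA at 20%. SRXN1 had ratios of 0.978 and 0.955 under siOCT4 at 1% oxygen, 1.17 and 1.29 under siOCT4 at 20%, 1.12 and 0.937 under control siRNA at 1%, and 1.38 and 1.49 under control siRNA at 20%. Both were highest in control cells at 20% oxygen and changed less than TXN: no culture differed from another by more than 2.05-fold for PRDX1 and 1.59-fold for SRXN1. The PRDX1 groups followed the order seen for TXN with no overlap between neighbours, and for SRXN1 both groups at 1% oxygen overlapped. GENCODE lists 1 pseudogene named after PRDX1, so its reads too could be split.

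PRDX1 fell 1.91-fold at 1% against 20% oxygen in control cells (-0.93 ± 0.13, limma, adjusted p = 0.00145, in all 8 fits with 1 culture left out) and, GC corrected, 1.32-fold (-0.40 ± 0.12, 0.0341). The corrected call was kept without control replicate 1 at 1% oxygen and lost in the other 7 fits (adjusted p up to 0.128). PRDX1 fell 1.32-fold with siOCT4 at 20% oxygen as deposited (-0.41 ± 0.13, 0.0392), a call kept only without control replicate 1 or 2 at 1% oxygen (up to 0.176 otherwise) and at 0.05 ± 0.12 GC corrected (0.798). In siOCT4 cells 1% oxygen gave -0.25 ± 0.13 (0.144) as deposited and -0.92 ± 0.12 GC corrected (0.00381, in all 8 fits), and -0.27 (0.0866) with transcript length corrected too. PRDX1 gave, with siOCT4 at 1% oxygen, 0.28 ± 0.13 (0.103) as deposited and -0.47 ± 0.12 GC corrected (0.0199), which was lost without control replicate 1 (0.0835) or siOCT4 replicate 1 (0.0988) or 2 (0.0515) at 1% oxygen. It was 0.16 with length corrected too (0.244), so no direction holds there.

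SRXN1 fell 1.40-fold at 1% against 20% oxygen in control cells (-0.49 ± 0.15, limma, adjusted p = 0.029) and, GC corrected, 1.60-fold (-0.67 ± 0.13, 0.00784). The corrected call was kept in all 8 fits with 1 culture left out, whereas the deposited one was kept only without control replicate 1 at 1% oxygen and was otherwise between 0.0531 and 0.115. In the other 3 comparisons SRXN1 did not pass as deposited, with -0.35 ± 0.15 for 1% oxygen in siOCT4 cells (0.0845), -0.23 ± 0.15 for siOCT4 at 20% oxygen (0.23) and -0.08 ± 0.15 for siOCT4 at 1% oxygen (0.638). GC corrected, the change with siOCT4 at 20% oxygen was -0.48 ± 0.13 (0.0498), which was lost in all 8 fits (0.0607 to 0.223). With transcript length corrected too, SRXN1 gave -0.45 there (0.069) and -0.51 with 1% oxygen in siOCT4 cells (0.0361).

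**Figure D3:**
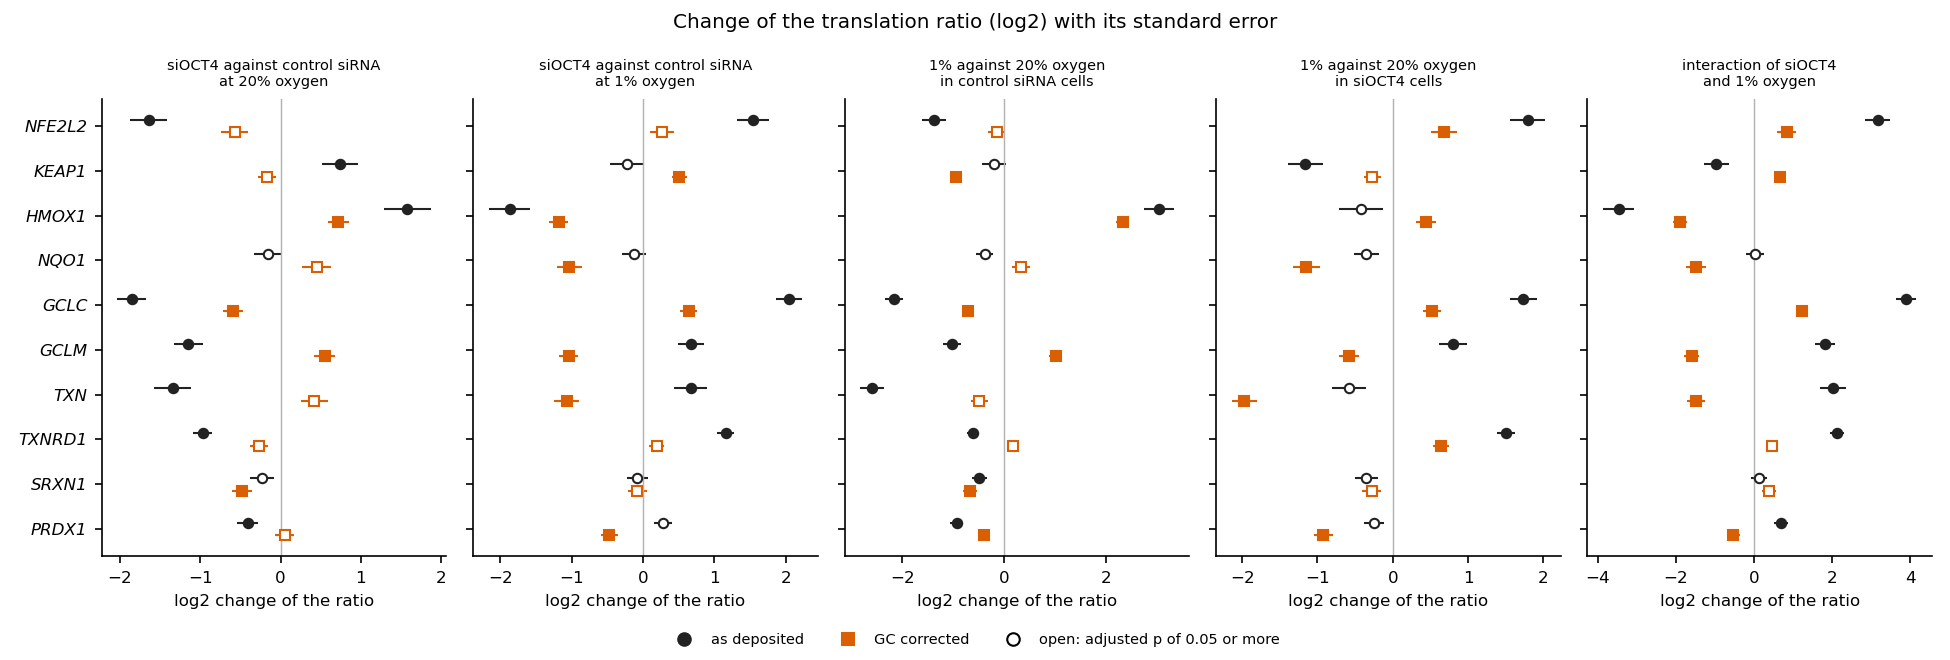
Log2 change of the translation ratio with its standard error for each gene in the 4 comparisons and the interaction, as deposited (black circles) and GC corrected (orange squares); filled symbols have a limma adjusted p under 0.05. HMOX1 keeps its side in control cells at 1% against 20% oxygen (3.04 and 2.33), and GCLM stands on opposite sides of 0 on the 2 scales.

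Counted over the 10 genes, the shares that passed are set beside the shares of all genes tested, since many genes passed in every comparison. The 4 comparisons share groups in pairs, and each is given by its own values. At 1% against 20% oxygen in control cells, 1 of 10 (HMOX1) rose, where 20.5% of all genes rose, and 7 of 10 fell, where 39.6% fell. The median log2 change was -0.78 over the 10 genes and -0.31 over all genes. GC corrected, 2 rose (HMOX1 and GCLM; 23.4% of all genes) and 4 fell (KEAP1, GCLC, SRXN1 and PRDX1; 23.5%).

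Of the 10 genes, 5 rose with siOCT4 at 1% oxygen (NFE2L2, GCLC, GCLM, TXN and TXNRD1; 41.1% of all genes) and HMOX1 alone fell (19.9%), with medians of 0.48 over the 10 and 0.42 over all genes. GC corrected, 2 rose (KEAP1 and GCLC; 22.6%) and 5 fell (HMOX1, NQO1, GCLM, TXN and PRDX1; 23.7%). At 20% oxygen, 2 rose with siOCT4 (KEAP1 and HMOX1; 19.2%) and 6 fell (34.1%), with medians of -0.69 and -0.09. GC corrected, HMOX1 and GCLM rose (9.17%) and GCLC and SRXN1 fell (10%). At 1% against 20% oxygen in siOCT4 cells, 4 rose (NFE2L2, GCLC, GCLM and TXNRD1; 37.4%) and KEAP1 fell (21.6%), with medians of -0.30 and 0.27. GC corrected, 4 rose (NFE2L2, HMOX1, GCLC and TXNRD1; 20.0%) and 4 fell (NQO1, GCLM, TXN and PRDX1; 18.9%). Each gene moves these shares by 10%, and none is read as particular to the 10 genes.

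Whether the effect of siOCT4 differed between the oxygen levels was tested by the interaction, the change with siOCT4 at 1% oxygen minus that at 20%. As deposited, 6 of 10 genes were higher (42.5% of all genes) and 2 lower (26.2%), and GC corrected 3 were higher (23.8%) and 5 lower (22.8%). The HMOX1 interaction was -3.46 ± 0.40 as deposited (limma, adjusted p = 0.000576) and -1.89 ± 0.18 GC corrected (0.0012). That of GCLC was 3.90 ± 0.26 (9.15e-05) and 1.23 ± 0.16 (0.00272), and both were kept on both scales in all 8 fits with 1 culture left out. NFE2L2 gave 3.17 ± 0.32 (0.000322) and 0.84 ± 0.25 (0.0359), whose corrected call was kept only without control replicate 2 at 1% or at 20% oxygen and reached 0.12 otherwise. NQO1, at 0.03 ± 0.24 as deposited (0.917), gave -1.48 ± 0.26 GC corrected (0.00631), in all 8 fits. GCLM (1.82 and -1.59), TXN (2.02 and -1.48), PRDX1 (0.69 and -0.52) and KEAP1 (-0.96 and 0.68) changed sign with the correction, each called on both scales, while TXNRD1 gave 2.13 as deposited and 0.46 ± 0.15 GC corrected (0.0523, and 0.0377 without control replicate 1 at 20% oxygen). The corrected call of PRDX1 was kept only without control replicate 2 at 1% oxygen (adjusted p up to 0.125 otherwise), that of KEAP1 was lost without siOCT4 replicate 1 at 20% oxygen (0.0589), and as deposited KEAP1 was kept in 2 of 8 fits and PRDX1 lost without siOCT4 replicate 2 at 1% (0.0615) or at 20% oxygen (0.0638). With transcript length corrected too, TXN gave -0.52 (0.124) and PRDX1 0.18 (0.319), so no direction holds for the PRDX1 interaction.

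Across the 8 cultures the log2 ratio of NFE2L2 ran with those of GCLC (Pearson r = 0.965), TXNRD1 (0.935) and GCLM (0.929), and those of GCLC and GCLM, the subunits of 1 enzyme, ran together (0.939). The ratio of TXN ran with that of PRDX1 (0.971), and that of SRXN1 with that of PRDX1 (0.853). The HMOX1 ratio ran against those of TXN (-0.908), PRDX1 (-0.881) and GCLC (-0.857), and NFE2L2 and KEAP1 had r = -0.672. These correlations are of the ratios as deposited and describe 8 cultures in 4 groups whose GC trends differ. GC corrected, GCLC and GCLM had opposite signs with siOCT4 at 1% oxygen (0.64 and -1.04) and at 20% (-0.59 and 0.55). Their corrected signs were also opposite with 1% oxygen in control cells (-0.71 and 1.01) and in siOCT4 cells (0.52 and -0.58). Corrected NFE2L2 values, in the same order 0.27, -0.57, -0.15 and 0.68, had the signs of GCLC and the opposite signs to GCLM. Those of TXNRD1 were 0.19, -0.27, 0.18 and 0.64. For NFE2L2 and TXNRD1 only 0.68 and 0.64 were called. Among 8086 genes without a coarse ratio, the 5 most like HMOX1 over the 8 cultures were CDCA8 (0.998), ZNF746 (0.997), DUSP1 (0.995), FLCN (0.995) and STC2 (0.995). They are the highest of that many correlations of deposited ratios, each over 8 cultures in 4 groups, and are given as a description. The STC2 ratio averaged 0.865 in siOCT4 cells at 1% oxygen, 1.14 in siOCT4 cells at 20%, 2.70 in control cells at 1% and 0.425 in control cells at 20%. The 5 most like NFE2L2, picked in the same way from 8087 genes, were MIER3 (0.999), DPP8 (0.998), TOR1AIP2 (0.997), EPM2AIP1 (0.997) and EIF2AK2 (0.996). Their transcript GC contents lay between 39.6% and 44.5%.

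Beyond the 10 genes, 82 further genes of the pathway in 7 lists had a ratio in all 8 cultures. In control cells at 1% against 20% oxygen 20 rose and 34 fell (28 and 24 GC corrected), and with siOCT4 at 1% oxygen 25 rose and 31 fell (10 and 42 GC corrected). At 20% oxygen siOCT4 went with 21 higher and 25 lower (9 and 7 GC corrected), and at 1% against 20% oxygen in siOCT4 cells 23 rose and 35 fell (7 and 35 GC corrected). The shares of all genes that passed stand in the paragraphs on the counts of the 10 genes. The median GC corrected log2 change over the 82 genes was 0.13 with 1% oxygen in control cells (0.01 over all genes), -0.55 with siOCT4 at 1% oxygen (-0.01), 0.05 with siOCT4 at 20% oxygen (-0.02) and -0.39 with 1% oxygen in siOCT4 cells (0.02). As deposited these medians were -0.04 (-0.31 over all genes), -0.34 (0.42), 0.00 (-0.09) and -0.51 (0.27). GC corrected values of the 7 lists and of their genes carry no correction for transcript length. With siOCT4 at 1% oxygen that further correction took TXN from -1.07 to -0.20 and HMOX1 from -1.18 to -1.06.

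Of 14 partners and regulators of NRF2, 9 rose and 5 fell at 1% against 20% oxygen in control cells (9 and 4 GC corrected). Of all genes, 20.5% rose and 39.6% fell there (23.4% and 23.5% GC corrected). MAFK, a small MAF partner of NRF2, had ratios of 1.51 and 0.829 at 1% oxygen and 0.286 and 0.458 at 20% in control cells, and rose 3.09-fold (limma, adjusted p = 0.00988; 1.65-fold GC corrected, 0.0195). The corrected call of MAFK was lost when control replicate 1 at 1% oxygen (0.0747), or control replicate 1 (0.0626) or 2 (0.0658) at 20%, was left out. CUL3, the cullin that KEAP1 recruits, had ratios of 0.659 and 0.768 at 1% oxygen and 5.46 and 4.91 at 20% in control cells, and fell 7.28-fold (0.000152; 1.58-fold GC corrected, 0.005). BACH1, the repressor that competes with NRF2 at HMOX1, had ratios of 1.10 and 1.57 at 1% oxygen and 7.79 and 8.39 at 20%, and fell 6.16-fold (0.000272; 1.76-fold GC corrected, 0.0173). The corrected call of BACH1 was lost without control replicate 1 at 1% (0.083) or replicate 2 at 20% oxygen (0.0543). Of the 14, 5 rose and 7 fell with siOCT4 at 1% oxygen (3 and 7 GC corrected), CUL3 rising 5.17-fold (1.53-fold GC corrected) and BTRC, an F-box protein that also marks NRF2, 4.33-fold (1.90-fold GC corrected). Of the 14, 7 rose and 4 fell with siOCT4 at 20% oxygen (1 and 1 GC corrected), and with 1% oxygen in siOCT4 cells 5 rose and 4 fell (3 and 3 GC corrected).

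The thioredoxin and peroxiredoxin list of 15 further genes held the largest of these changes. At 1% against 20% oxygen in control cells 3 rose and 6 fell (6 and 3 GC corrected). Of all genes, 20.5% rose and 39.6% fell there (23.4% and 23.5% GC corrected). TXNIP, which binds and inhibits thioredoxin, had ratios of 3.20 and 3.52 at 1% oxygen and 0.223 and 0.206 at 20% in control cells, a 15.7-fold rise (limma, adjusted p = 0.000152; 38.2-fold GC corrected, 0.000114). TXNRD2, the mitochondrial thioredoxin reductase, had ratios of 3.74 and 2.10 at 1% and 0.193 and 0.396 at 20% oxygen and rose 10.1-fold (6.52-fold GC corrected). SESN2, a stress-induced sestrin, had 2.29 and 1.93 at 1% and 0.240 and 0.351 at 20% and rose 7.24-fold (4.68-fold GC corrected), whereas its relative SESN3 fell 6.62-fold (2.78-fold GC corrected). These 4 calls were kept in all 8 fits with 1 culture left out on both scales.

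Of these 15 genes, 3 rose and 7 fell with siOCT4 at 1% oxygen (1 and 11 GC corrected). TXNRD2 had ratios of 0.293 and 0.349 in siOCT4 cells and 3.74 and 2.10 in control cells at 1% oxygen and fell 8.76-fold (limma, adjusted p = 0.00157; 5.74-fold GC corrected, 0.00181). PRDX5, a peroxiredoxin of mitochondria and peroxisomes, had 0.285 and 0.286 in siOCT4 cells and 1.67 and 0.815 in control cells and fell 4.09-fold (2.54-fold GC corrected). At 1% against 20% oxygen in siOCT4 cells 3 rose and 8 fell (1 and 9 GC corrected), among them TXNDC17, a thioredoxin-like reductase, with 0.481 and 0.463 at 1% and 1.48 and 1.70 at 20% oxygen (3.35-fold lower, 7.35-fold GC corrected). Counts with siOCT4 at 20% oxygen were 4 higher and 3 lower (5 and 1 GC corrected), TXNIP rising 4.95-fold (10.7-fold GC corrected).

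Of 15 further glutathione enzymes, 1 rose and 6 fell at 1% against 20% oxygen in control cells (3 and 7 GC corrected). GGCT, which degrades gamma-glutamyl peptides, had ratios of 0.774 and 0.743 at 1% and 4.47 and 3.71 at 20% oxygen and fell 5.37-fold (limma, adjusted p = 0.000162; 2.01-fold GC corrected, 0.00261), and GSS, glutathione synthetase, rose 1.74-fold (0.00711; 1.34-fold GC corrected, 0.0325). The corrected call of GSS was kept only without control replicate 2 at 1% or replicate 1 at 20% oxygen, and the adjusted p reached 0.134 otherwise. Of the 15, 5 rose and 6 fell with siOCT4 at 1% oxygen (0 and 8 GC corrected). GSTO1, an omega glutathione transferase, had 0.461 and 0.551 in siOCT4 cells and 1.27 and 1.14 in control cells and fell 2.39-fold (0.00172; 3.19-fold GC corrected, 0.00167). In siOCT4 cells, 2 rose and 7 fell at 1% against 20% oxygen (1 and 9 GC corrected), and with siOCT4 at 20% oxygen 2 rose and 5 fell (1 and 0 GC corrected). SLC7A11, the cystine transporter that feeds glutathione synthesis, had ratios of 4.72 and 4.36 at 1% and 1.39 and 1.28 at 20% oxygen in siOCT4 cells and rose 3.40-fold (0.000851; 1.37-fold GC corrected, 0.0461). The corrected call of SLC7A11 was kept only without control replicate 1 or 2 at 20% oxygen, and the adjusted p reached 0.18 otherwise.

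Among 8 genes of heme and iron handling, 3 rose and 3 fell with 1% oxygen in control cells (2 and 1 GC corrected), and 2 rose and 3 fell with siOCT4 at 1% oxygen (0 and 5 GC corrected). FTL, the ferritin light chain, which stores iron that heme oxygenase releases, had ratios of 0.395 and 0.390 in siOCT4 cells and 0.835 and 0.706 in control cells at 1% oxygen. It fell 1.96-fold (limma, adjusted p = 0.00932, kept in 6 of 8 fits with 1 culture left out, up to 0.054; 1.56-fold GC corrected, 0.00713, in all 8). FLVCR1, a heme exporter, rose 3.09-fold with siOCT4 at 1% oxygen (0.000354), and 1.15-fold GC corrected (0.129). In this list 1 rose and 2 fell with siOCT4 at 20% oxygen (0 and 0 GC corrected), and 2 rose and 3 fell with 1% oxygen in siOCT4 cells (0 and 1 GC corrected).

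Both thioredoxin reductase and glutathione reductase consume NADPH. Of 10 enzymes listed under NADPH supply, not all of which make NADPH themselves, 2 rose and 4 fell with 1% oxygen in control cells (4 and 1 GC corrected). ME2, a mitochondrial malic enzyme, had ratios of 0.481 and 0.602 at 1% and 5.08 and 4.86 at 20% oxygen and fell 9.23-fold (limma, adjusted p = 0.000152; 2.62-fold GC corrected, 0.000657), while TKT, transketolase, had 1.17 and 0.987 at 1% and 0.342 and 0.378 at 20% oxygen and rose 2.99-fold (0.000833; 2.03-fold GC corrected, 0.00195). Of the 10, 4 rose and 4 fell with siOCT4 at 1% oxygen (3 and 3 GC corrected), with ME2 5.10-fold higher (1.67-fold GC corrected) and TKT 3.12-fold lower (2.18-fold GC corrected). In the remaining comparisons 3 rose and 5 fell with siOCT4 at 20% oxygen (1 and 1 GC corrected), and 5 rose and 5 fell with 1% oxygen in siOCT4 cells (0 and 5 GC corrected).

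Of 8 superoxide and peroxide enzymes, 0 rose and 5 fell with 1% oxygen in control cells (0 and 3 GC corrected). PON2, an intracellular lactonase with antioxidant activity, had ratios of 0.748 and 0.685 at 1% and 8.67 and 6.94 at 20% oxygen and fell 10.8-fold (limma, adjusted p = 0.000152; 5.91-fold GC corrected, 0.000647). Of the 8, 3 rose and 2 fell with siOCT4 at 1% oxygen (2 and 3 GC corrected), and with 1% oxygen in siOCT4 cells 3 rose and 4 fell (1 and 4 GC corrected). PARK7, which encodes DJ-1, had 0.707 and 0.804 at 1% and 1.35 and 1.34 at 20% oxygen in siOCT4 cells and fell 1.79-fold (0.00686; 2.99-fold GC corrected, 0.00319). With siOCT4 at 20% oxygen 1 rose and 3 fell (0 and 2 GC corrected).

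Of 12 other detoxification enzymes that NRF2 induces, 2 rose and 5 fell with 1% oxygen in control cells (4 and 5 GC corrected). UGDH, which makes UDP-glucuronate for glucuronidation, had ratios of 0.854 and 1.01 at 1% and 4.61 and 4.42 at 20% oxygen and fell 4.86-fold (limma, adjusted p = 0.000161; 2.29-fold GC corrected, 0.000997). ABCC1, an exporter of glutathione conjugates, had 0.853 and 0.866 at 1% and 0.437 and 0.483 at 20% oxygen and rose 1.87-fold (0.00435; 1.46-fold GC corrected, 0.00998). Of the 12, 3 rose and 2 fell with siOCT4 at 1% oxygen (1 and 5 GC corrected), UGDH rising 3.65-fold (1.62-fold GC corrected). With siOCT4 at 20% oxygen 3 rose and 3 fell (1 and 2 GC corrected), and with 1% oxygen in siOCT4 cells 3 rose and 4 fell (1 and 4 GC corrected).

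**Figure D4:**
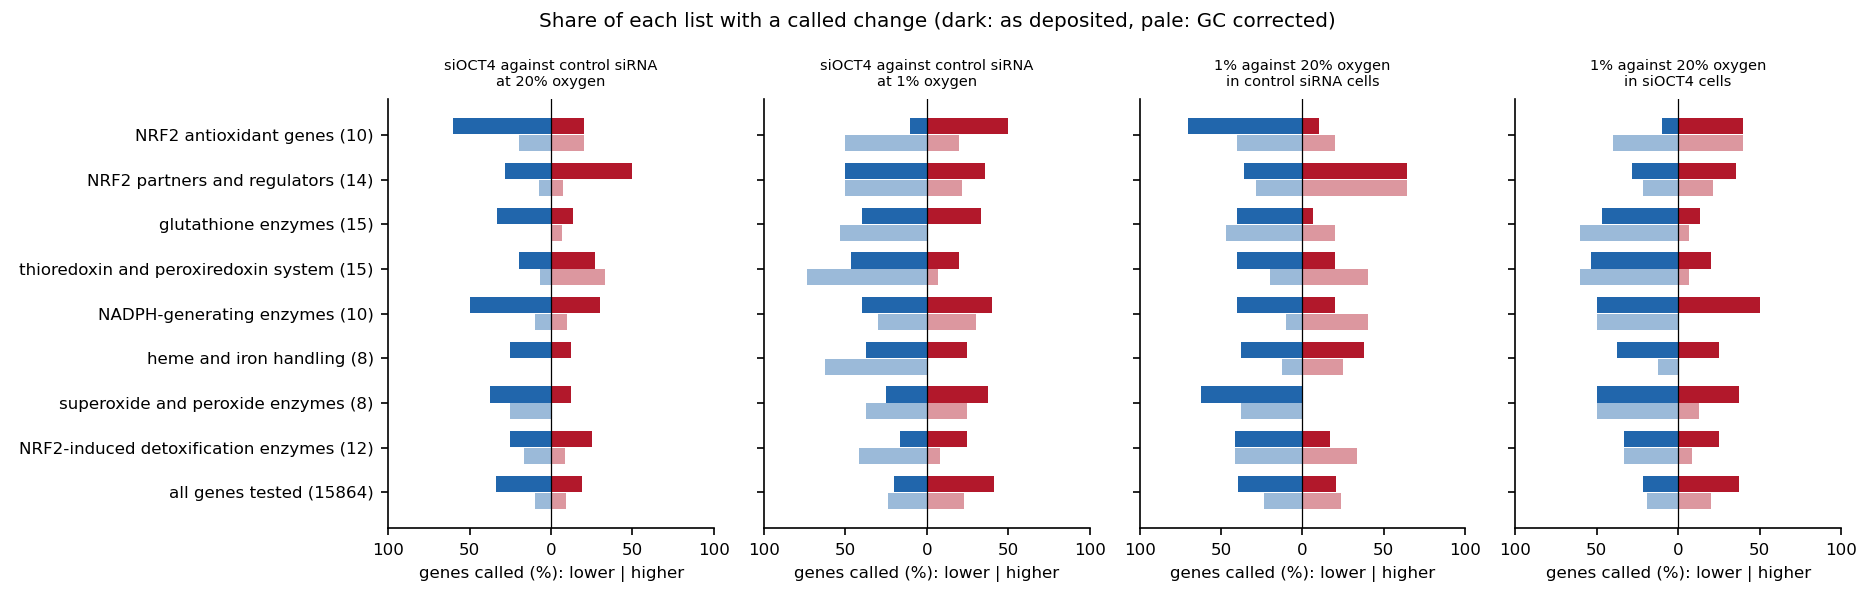
Share of the genes of each list (number measured in brackets) that passed limma's test at an adjusted p under 0.05, higher to the right in red and lower to the left in blue, as deposited (dark) and GC corrected (pale), with all genes tested in the bottom row. The balance of higher and lower changes with the correction in most lists: with siOCT4 at 1% oxygen the thioredoxin and peroxiredoxin list has 7 of 15 lower as deposited and 11 of 15 GC corrected. Of all genes, 19.9% were lower there as deposited and 23.7% GC corrected. Transcript length was not corrected in these shares.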

How the data were processed

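The authors deposited 1 table whose values are a ratio per gene and culture, the RNC value over the RNA value; columns marked "sO" were read as siOCT4. Per the submitters' processing notes edgeR and hg19 were used, in a role not stated; the sources used here name no aligner, filter or library depth, so no counting error could be set. Transcript GC content and length are means over the protein-coding transcripts of each symbol (all transcripts where it has none) in GENCODE release 29, on another build and used for no coordinates; 15261 tested genes (96.2%) had them. Log2 ratios of 15864 genes were fitted in R 4.3.3 with limma 3.58.1 and statmod 1.5.0 (trend and robust settings, 4 group means, 4 residual degrees of freedom). Tests were two-sided; p-values were adjusted by Benjamini-Hochberg per comparison across every tested gene, and a value under 0.05 was called. The correction subtracted a natural spline (6 degrees of freedom) of GC content per culture. Coarse ratios are those at least 3 genes of a culture share within a relative tolerance of 2e-06. With 1 culture left out, the lone culture is assumed to vary like the others. Named genes beyond the 10 are a part of those that a rule picked: up to 4 per list and comparison by size of change among those called without a coarse ratio. Members, lists and the correction were chosen with earlier results of these data known. The fit was tested on simulated data. Python 3.11.15, numpy 2.4.6, pandas 2.3.3 and matplotlib 3.10.9 made tables and figures.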

Additional observations from a re-analysis of the deposited data

Results flagged for a closer look

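For 8 of the 10 genes the effect of siOCT4 on the ratio differed between 1% and 20% oxygen by limma's interaction test, 6 with a higher and 2 with a lower value, where 42.5% of all genes tested were higher and 26.2% lower. As deposited, the log2 interaction was 3.17 for NFE2L2, 3.90 for GCLC, 1.82 for GCLM, 2.02 for TXN, 2.13 for TXNRD1, 0.69 for PRDX1, -0.96 for KEAP1 and -3.46 for HMOX1. GC corrected, NFE2L2 (0.84), GCLC (1.23) and HMOX1 (-1.89) were called with the same sign, TXNRD1 (0.46) was not called, and GCLM, TXN, PRDX1 and KEAP1 had the other sign. With transcript length corrected too, PRDX1 gave 0.18 (adjusted p = 0.319). The call of KEAP1 as deposited was kept in 2 of the 8 fits with 1 culture left out, those without control replicate 2 at 1% or at 20% oxygen (adjusted p up to 0.128 otherwise). That of PRDX1 was lost without siOCT4 replicate 2 at 1% (0.0615) or at 20% oxygen (0.0638).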

How the results depend on the processing

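Of the 50 log2 changes (10 genes in 5 comparisons), pseudocounts of 0.01 and 0.1 and limma without trend and robust settings reversed 0, and the GC correction reversed 19. The number of the 10 genes called with siOCT4 at 20% oxygen was 8 as deposited, 4 GC corrected, 3 with GC and length corrected, 2 quantile normalized and 5 (of 7) without genes with a coarse ratio. It was 6, and 3 quantile normalized, with siOCT4 at 1% oxygen. It was 8, and 4 quantile normalized, with 1% oxygen in control cells. For 1% oxygen in siOCT4 cells it was 5, 8 GC corrected and 9 median centred. For the interaction it was 8, 3 quantile normalized and 5 (of 7) without genes with a coarse ratio, where 85.0% of the genes left were called. Leaving out 1 culture, the GC corrected count ranged between 0 and 2 with siOCT4 at 20% oxygen (4 with all cultures), between 2 and 8 with 1% oxygen in siOCT4 cells (8 with all) and between 5 and 8 for the interaction (8 with all). Counts over all genes moved as well. With siOCT4 at 20% oxygen 8450 genes were called as deposited (53.3%), against 6260 of the 8087 genes without a coarse ratio (77.4%). There 2932 were called GC corrected (19.2%), 3111 with GC and length corrected (20.4%) and 1838 quantile normalized (11.6%). GC corrected and with 1 culture left out, between 2 and 2463 genes were called there, the fewest without siOCT4 replicate 1 (2) or 2 (3) at 20% oxygen, where 3785 and 3727 genes had an unadjusted p under 0.05 by limma. With 1% oxygen in siOCT4 cells, 9362 genes were called as deposited, 5928 GC corrected, 9597 median centred and between 2256 and 6355 GC corrected with 1 culture left out, and for the interaction 10893, 7098, 11281 and between 5207 and 7017. Quantile normalized, 6405 genes were called with siOCT4 at 1% oxygen (9672 as deposited), 6739 with 1% oxygen in control cells (9545) and 7034 for the interaction. Without genes with a coarse ratio NFE2L2, KEAP1 and GCLM have no value, and fitting 2 groups alone gives none for the interaction. Depth limits cannot be given, since the table holds no read numbers.

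Replicate numbers did not pair the cultures: the correlation of same-numbered deviations lay between -0.233 and 0.0225. With the replicate block the counts were 6, 5, 7, 5 and 7 of the 10 genes in the order of comparisons above. Of all genes, 46.4%, 57.1%, 56.0%, 54.3% and 66.1% were called, in the same order. GC corrected with the replicate block, the counts were 1, 7, 5, 7 and 6. The 1 for siOCT4 at 20% oxygen compares with 4, while 1528 of all genes were called there against 2932. In the comparisons after it, 41.6%, 42.3%, 32.7% and 41.9% of all genes were called. With the numbers of the control cultures at 1% oxygen crossed, 8 of the 10 genes were called for 1% oxygen in control cells, where 60.7% of all genes were called.

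Signs were reversed as follows; the cause was not tested. With siOCT4 at 20% oxygen, GC corrected values were -0.17 for KEAP1, 0.45 for NQO1, 0.55 for GCLM, 0.42 for TXN and 0.05 for PRDX1; with GC and length corrected -0.14 for KEAP1, 0.48 for NQO1, 0.57 for GCLM and 0.32 for TXN; quantile normalized 0.05 for TXN, 0.24 for SRXN1 and 0.10 for PRDX1. With siOCT4 at 1% oxygen, GC corrected values were 0.51 for KEAP1, -1.04 for GCLM, -1.07 for TXN and -0.47 for PRDX1. With GC and length corrected they were 0.50 for KEAP1, -1.26 for GCLM and -0.20 for TXN. Quantile normalized, KEAP1 was 0.14, NQO1 0.05 and GCLM -0.34; median centred, PRDX1 was -0.10. SRXN1 ranged between -0.21 and 0.04 with 1 culture left out, the highest without control replicate 1 at 1% oxygen. With 1% oxygen in control cells, GC corrected values were 0.33 for NQO1, 1.01 for GCLM and 0.18 for TXNRD1, with GC and length corrected 0.35, 1.02 and 0.21 for the same genes, and quantile normalized 0.06 for GCLM and 0.25 for TXNRD1. With 1% oxygen in siOCT4 cells, HMOX1 was 0.44 and GCLM -0.58 GC corrected, 0.56 and -0.81 with GC and length corrected, and 0.09 and -0.06 quantile normalized, where NQO1 was 0.14. For the interaction, GC corrected values were 0.68 for KEAP1, -1.48 for NQO1, -1.59 for GCLM, -1.48 for TXN and -0.52 for PRDX1. With GC and length corrected they were 0.64 for KEAP1, -1.43 for NQO1, -1.83 for GCLM and -0.52 for TXN. Median centred, NQO1 was -0.43 and SRXN1 -0.32, and quantile normalized GCLM was -0.12 and SRXN1 -0.54. NQO1 was -0.08 without control replicate 2 at 1% oxygen or siOCT4 replicate 1 at 20% oxygen and -0.12 without control replicate 1 at 20% oxygen, the lowest, and 0.03 with all cultures.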
